A study of Arabidopsis thaliana and Cucumis sativus and Glycine max with 60 samples.

Results

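In the roots of tomato seedlings, 92 genes were expressed mainly in the elongation zone (EZ), the stretch of root between the meristematic zone (MZ) at the tip and the older differentiation zone (DZ). They are the genes whose mean RPKM in the 3 EZ libraries was at least 10 and whose EZ mean plus 1 was at least 4 times both the MZ mean plus 1 and the DZ mean plus 1. RPKM is the number of reads on a gene scaled to the gene's length and to the reads of the library. The table holds 34673 tomato genes among 311875 rows of 6 species, and 10103 tomato genes had an EZ mean of at least 10 RPKM. The EZ values themselves chose the 92 genes, so their height in the EZ is given as a description and is not tested.

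The series measured mRNA by RNA sequencing along the growing primary root of 7 vascular plants, and the tomato part holds 9 libraries. The 3 groups were MZ, EZ and DZ of cultivar Heinz 1706, each with 3 libraries, from seedlings at 6 days after plating on agarose-solidified MS medium in constant light, and the labels name no treatment or mutation. The design text calls the 3 libraries of a zone biological replicates, and the labels do not say how many roots went into each. No table used here pairs the tomato locus names with gene names, so the genes are called by their locus names, no function is given for them, and the zone labels were not checked against marker genes. RNA came from whole root slices, so fewer cells of a type and less RNA per cell cannot be told apart in these values.

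Cells of a root tip are made by division in the meristem and leave it toward the shoot in files, so distance from the tip stands for developmental age. In the elongation zone they stop dividing and lengthen many times over as the vacuole takes up water and the primary wall is loosened and rebuilt. Farther back they take on their final form as hairs, vessels and barrier tissues. A gene with a peak in the EZ has its highest mRNA level in the stretch of root between these states.

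Such peaks were rare next to genes of the flanking zones. With MZ in place of EZ the same rule was met by 534 tomato genes, and with DZ in place of EZ by 1005. Of the 10103 genes with an EZ mean of at least 10, the EZ mean was the highest of the 3 zones in 3418, at least 2 times both others in 581, at least 3 times in 178 and at least 4 times in the 92. These 92 are 0.911% of the 10103. The 4-fold limit cut through a continuous range. The members nearest to it stood at 4.00, 4.05 and 4.08 times the higher flanking zone, and the nearest genes outside at 3.98, 3.97 and 3.96 times. At the limit of 10 RPKM the lowest members had EZ means of 10.2, 10.4 and 10.9 RPKM, and the nearest genes that met the fold but not the level had 9.25, 9.17 and 8.61 RPKM.

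Depth was estimated from genes with very few reads, at 0.934 to 1.17 times that of MZ replicate 1 over the 9 libraries. The estimate took in only ratios near 1. It could therefore not have shown a large difference in depth, and nothing is read from the narrow range. Log2 values correlated at 0.940 to 0.982 between libraries of a zone and at up to 0.861 between zones, across genes, which are not independent replicates. On a line from the mean MZ profile at 0 to the mean DZ profile at 1, drawn over the 19801 tested genes outside the 92, EZ replicates 1, 2 and 3 lay at 0.461, 0.555 and 0.703. The median level of the 534 MZ-peaking genes was 8.49, 3.61 and 3.20 RPKM in EZ replicates 1, 2 and 3, against 38.8 to 47.6 RPKM in the MZ libraries. The median of the 1005 DZ-peaking genes was 2.89, 2.74 and 6.23 RPKM in them, against 38.2 to 47.9 RPKM in the DZ libraries. The EZ libraries thus differed in how much of the flanking programs they held, with replicate 1 nearest to the MZ and replicate 3 nearest to the DZ. The part of this difference in the results below was not tested.

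The 92 genes spanned a wide range of levels. Their EZ means ran from 10.2 to 2539 RPKM with a median of 65.9, and 31 of them reached at least 100 RPKM. In the MZ their means had a median of 2.81 RPKM and in the DZ of 7.78 RPKM. Together they made up 0.0435% to 0.0811% of the summed tomato RPKM in the MZ libraries, 0.719% to 1.38% in the EZ libraries and 0.130% to 0.158% in the DZ libraries. The EZ mean plus 1 was a median of 5.71 times the higher of the flanking zones, with quartiles of 4.61 and 8.86 times. In 28 genes it was at least 8 times, in 17 at least 10 times and in 2 at least 20 times. Over the MZ alone the median was 10.7 times and over the DZ alone 6.27 times, so the fold over the MZ was on the whole the larger.

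**Figure D1:**
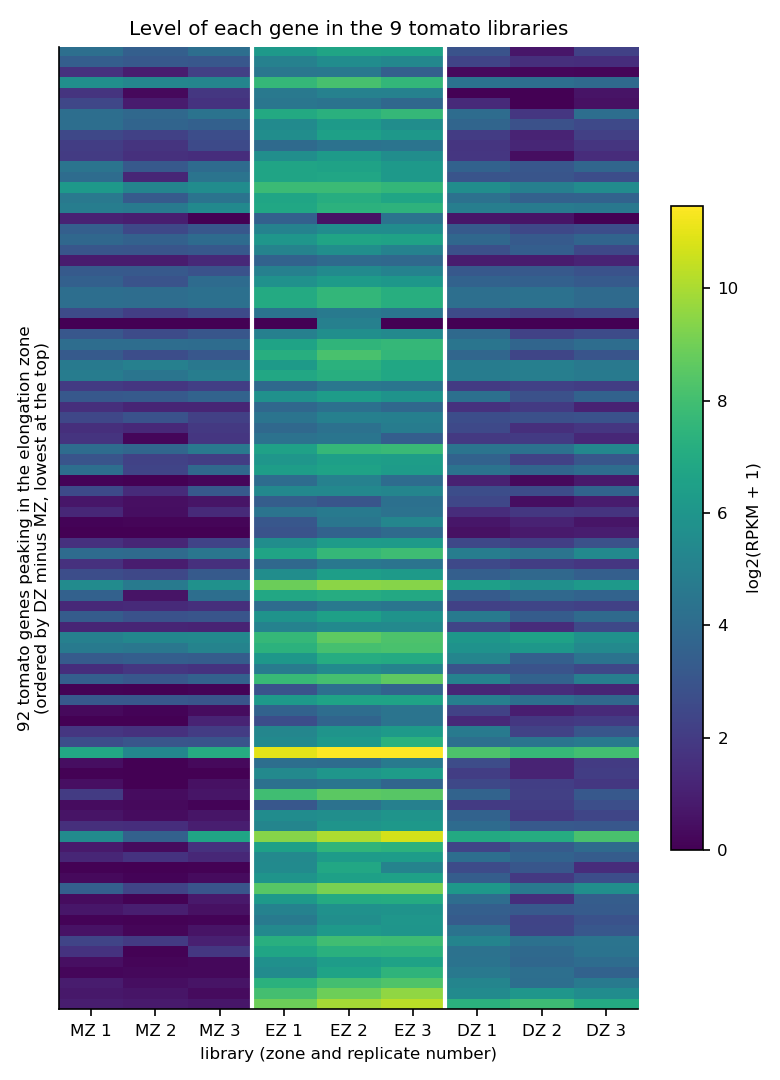
Level of the 92 genes (rows) in the 9 tomato libraries (columns), as log2(RPKM + 1) in colour, with genes ordered from the lowest to the highest difference between DZ and MZ. The block of 3 EZ columns is brightest in nearly every row, and the MZ columns are darkest toward the bottom, where many of the 25 genes with an MZ mean under 1 RPKM lie.

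The gene with the highest EZ level was Solyc03g116060.2. It was at 117, 38.4 and 137 RPKM in MZ replicates 1 to 3, at 2011, 2818 and 2787 RPKM in the EZ and at 303, 204 and 253 RPKM in the DZ. Every EZ library stood far above the other 6, and the DZ libraries all stood above the MZ libraries. The next highest gene was Solyc10g074840.1, at 44.8, 10.8 and 104 RPKM in the MZ, 661, 1074 and 1686 RPKM in the EZ and 124, 134 and 289 RPKM in the DZ. Its EZ libraries were spread 2.55-fold, wider than those of the first gene at 1.40-fold. With these, 6 genes had EZ means of at least 500 RPKM.

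The sharpest peak was that of Solyc05g008550.2, whose EZ mean plus 1 was 38.1 times the higher flanking zone. It was at 2.99, 0.284 and 0.592 RPKM in the MZ, at 244, 375 and 356 RPKM in the EZ and at 11.4, 3.47 and 7.83 RPKM in the DZ. Solyc08g079080.2 followed at 23.3 times. It was at 8.42, 5.44 and 7.56 RPKM in the MZ, at 147, 284 and 192 RPKM in the EZ and at 12.8, 4.27 and 6.77 RPKM in the DZ. In this gene the ranges of the flanking zones overlapped, whereas in Solyc05g008550.2 the DZ lay above the MZ in all libraries.

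**Figure D2:**
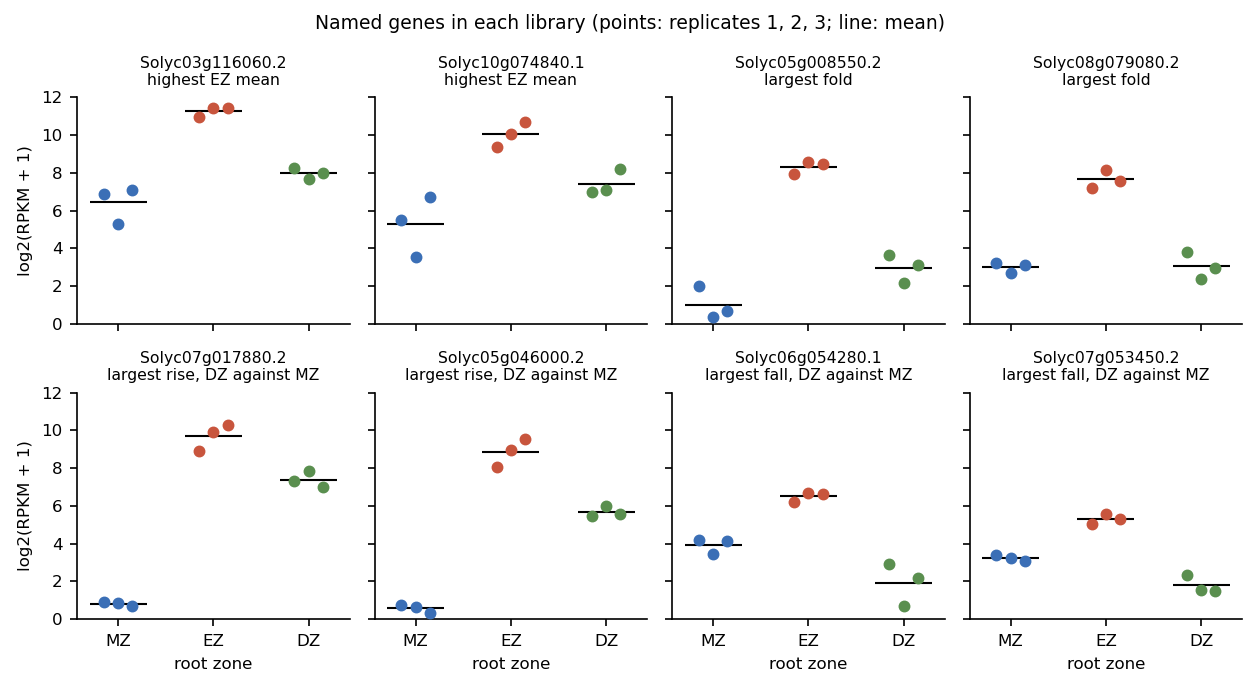
Level of 8 genes chosen by rank, as log2(RPKM + 1), in each of 3 libraries of the MZ, EZ and DZ (points, replicates 1, 2 and 3 from left to right; line, mean of the log2 values). In all 8 the EZ points lie above every MZ and DZ point, while the flanking zones range from level, in Solyc08g079080.2, to far apart, in Solyc07g017880.2.

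In single libraries the peak was seen widely, but its size differed between replicate numbers. The labels do not say what a number stands for, so libraries of the same number may not belong together. In 90 of the 92 genes every EZ library was above every MZ and DZ library, a pattern that 11.2% of all tested genes showed and that the rule nearly sets, so nothing is read from it. Within a replicate number, the median fold of the EZ over the higher flanking zone was 4.13 in number 1, 8.41 in number 2 and 6.36 in number 3. The 4-fold limit was met by 49 genes within number 1, by 89 within number 2, by 81 within number 3 and by 42 within all 3. The median coefficient of variation over the EZ libraries was 25.6%, and in 24 genes the highest EZ library was at least 2 times the lowest. EZ replicate 1, the one nearest to the MZ, was the lowest of the 3 in 71 genes. EZ replicate 2 was the highest in 54 and EZ replicate 3 in 35.

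The same measure was then read in libraries that had no part in choosing the genes looked up. When the rule was applied to 2 replicate numbers, the genes so chosen were looked up in the 3 libraries of the number left out. Of 133 genes chosen without number 1, 48 (36.1%) were at least 4 times both flanking zones in number 1, and the EZ was the highest zone in 128. Of 78 genes chosen without number 2, 68 (87.2%) met the fold in number 2, with the EZ highest in 71. Of 94 genes chosen without number 3, 61 (64.9%) met it in number 3, with the EZ highest in 88. Among all genes with at least 10 RPKM in the EZ library of the number left out, the same fold was met by 0.666%, 1.63% and 1.43% in numbers 1, 2 and 3. The fold was thus met in every number at many times the rate of all genes, which include the chosen ones. It was met least often in number 1. The rule was set with earlier results of these data known, so these rates are a description and not a test. With a fold of at least 2 the genes found again were 112 of 133 in number 1, 71 of 78 in number 2 and 81 of 94 in number 3. Among all genes with at least 10 RPKM in the EZ library of that number, this fold was met by 3.82%, 8.51% and 7.05%.

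In limma, 91 of the 92 genes passed the filter of at least 1 RPKM in at least 3 of 9 libraries. Every one of the 91 was called as rising from MZ to EZ and as falling from EZ to DZ, at an adjusted p under 0.05 and at least 2-fold. With the replicate number as a block in the fit, 90 of the 91 were called in each of these contrasts. Of all 19892 genes tested, 19.9% were called as rising into the EZ and 11.6% as falling out of it. The rule used both contrasts, so these counts describe the choice and support nothing. The fitted log2 changes of the 91 genes had a median of 3.36 and a maximum of 8.89 for EZ against MZ and ran from -5.35 to -1.89 for DZ against EZ, with a median of -2.62.

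The comparison of the flanking zones with each other was not set by the rule, although the rule caps both well under the EZ level. It asks whether a gene returns to its starting level after elongation or stays above or below it. Between the DZ and the MZ, 33 of the 91 genes (36.3%) were called higher in the DZ and 5 (5.49%) lower, and 53 were not called. Over all genes tested 27.7% were called higher and 26.9% lower, so the share of higher calls was somewhat above that of all genes, and the share of lower calls was well under it. These shares have a limit, since members could pass the filter through the EZ libraries alone. On the log2(RPKM + 1) scale, the 25 of the 92 with an MZ mean under 1 RPKM could not be called lower. The 9 with a DZ mean under 1 RPKM could not be called higher, and 5 genes had both means under 1 RPKM. The scale thus limited lower calls in more members than higher calls. How many of all genes were limited in this way was not counted. The median log2 change was 0.74 over the 91 genes and -0.08 over all genes tested. The counts ranged from 28 to 38 higher and from 4 to 7 lower when each library was left out in turn, and were 33 higher and 6 lower with the replicate block. The lowest higher count came without MZ replicate 2, the library with the lowest value of its zone in 59 of the 92 genes. Every DZ library lay above every MZ library in 44 of the 91 genes, against 38.9% of all genes tested, and every DZ library lay below every MZ library in 5, against 41.7%.

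In weaker peaks, higher calls also outnumbered lower ones. Among the genes with an EZ mean of at least 10 and a peak of 2 to 4 times, 101 of 486 tested (20.8%) were called higher in the DZ than in the MZ and 47 (9.67%) lower, with a median log2 change of 0.11. Among those with the EZ highest but under 2 times, 472 of 2837 (16.6%) were higher and 239 (8.42%) lower, with a median of 0.13. The difference between these groups and the 92 was not tested, since genes of the same libraries are not replicates.

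**Figure D3:**
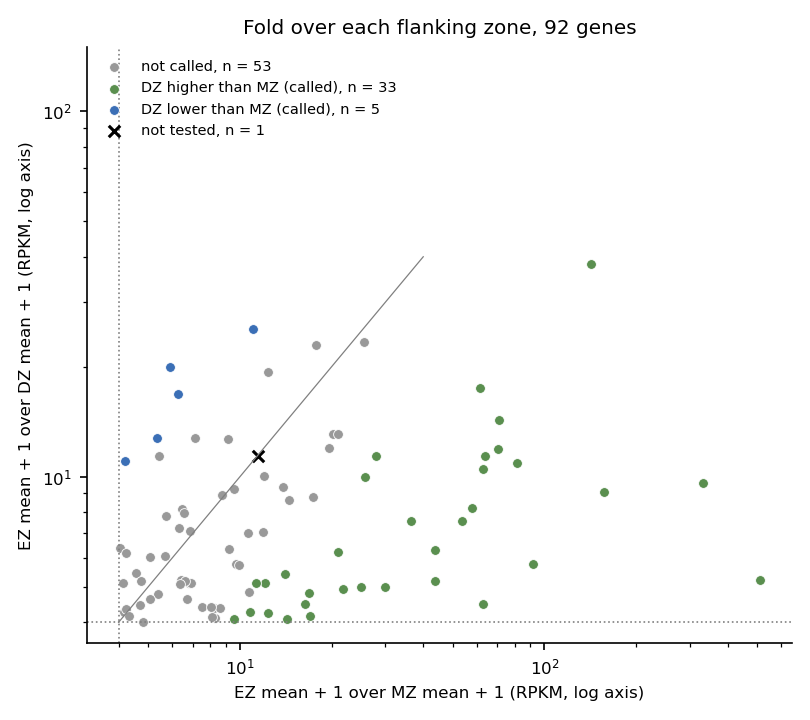
EZ mean plus 1 over MZ mean plus 1 (horizontal, log axis) and over DZ mean plus 1 (vertical, log axis) for the 92 genes, coloured by the limma call of DZ against MZ. Dotted lines mark the 4-fold limit and the solid line equal folds. The 33 genes called higher in the DZ spread to the right, up to 510 times the MZ, and the 5 called lower lie at the upper left.

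The genes called higher in the DZ were mostly at low levels in the MZ, although the highest MZ mean among them was 97.4 RPKM. Their zone means had medians of 0.555 RPKM in the MZ, 76.2 RPKM in the EZ and 10.3 RPKM in the DZ, and 19 of the 33 had an MZ mean under 1 RPKM. The largest rise was that of Solyc07g017880.2. It was at 0.876, 0.784 and 0.631 RPKM in the MZ, at 488, 965 and 1243 RPKM in the EZ and at 158, 227 and 128 RPKM in the DZ. No library of the MZ reached 1 RPKM, while every DZ library was over 100 RPKM. Its log2 change from MZ to DZ was 6.57 ± 0.33 (SE, adjusted p = 3.96e-07 in limma). Solyc05g046000.2 was second, at 0.688, 0.588 and 0.268 RPKM in the MZ, 263, 490 and 748 RPKM in the EZ and 43.4, 63.4 and 46.8 RPKM in the DZ. It rose by 5.10 ± 0.34 on the log2 scale (adjusted p = 1.72e-06 in limma). Both genes had EZ replicate 1 lowest and EZ replicate 3 highest.

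The genes named above for their level or sharpness differed in this comparison. Solyc05g008550.2 was called higher in the DZ than in the MZ, by 1.97 ± 0.47 on the log2 scale (adjusted p = 0.00371 in limma). Solyc08g079080.2 was not called, with a log2 change of 0.04 ± 0.36 (adjusted p = 0.921). Solyc03g116060.2 was called higher by 1.54 ± 0.42 (adjusted p = 0.00783) and Solyc10g074840.1 by 2.14 ± 0.72 (adjusted p = 0.0211). Both of these calls were lost when a single library was left out. Without MZ replicate 2, the log2 change of Solyc03g116060.2 was 0.98 (adjusted p = 0.00609), under the 2-fold limit, and that of Solyc10g074840.1 was 1.29 (adjusted p = 0.0542). Without DZ replicate 3, Solyc10g074840.1 had a log2 change of 1.75 (adjusted p = 0.077).

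The 5 genes called lower in the DZ were expressed in the MZ, with a median MZ mean of 8.45 RPKM, a median EZ mean of 38.8 RPKM and a median DZ mean of 2.60 RPKM. The largest fall was that of Solyc06g054280.1, at 17, 10.1 and 16.8 RPKM in the MZ, 72.8, 101 and 98.8 RPKM in the EZ and 6.56, 0.613 and 3.59 RPKM in the DZ. Its DZ libraries all lay under its MZ libraries, and its log2 change was -1.996 ± 0.484 (adjusted p = 0.00404 in limma). Solyc07g053450.2 was at 9.57, 8.28 and 7.51 RPKM in the MZ, 31.7, 46.1 and 38.6 RPKM in the EZ and 4.04, 1.94 and 1.83 RPKM in the DZ. It fell by 1.44 on the log2 scale, with an SE of 0.24 (adjusted p = 0.000446 in limma).

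The 53 genes that were not called had medians of 7.43 RPKM in the MZ, 66.0 RPKM in the EZ and 7.60 RPKM in the DZ. The DZ mean was above the MZ mean in 32 of them. A change under 2-fold with an adjusted p under 0.05 was found in 10. The absence of a call does not show that their flanking levels were alike. Over all 92 genes, 25 had an MZ mean under 1 RPKM, 9 had a DZ mean under 1 RPKM, and 5 had both, so expression close to the EZ alone was seen in few of them.

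Which EZ library was highest went with the call. Of the 33 genes called higher in the DZ, 22 were highest in EZ replicate 3, the library nearest to the DZ, and 11 in EZ replicate 2. Of the 53 not called, 38 were highest in EZ replicate 2 and 12 in EZ replicate 3. Of the 5 called lower, 4 were highest in EZ replicate 2 and 1 in EZ replicate 3. For the higher calls, the link with EZ replicate 3 was also present across all genes tested, so that part is not particular to the 92. EZ replicate 3 was the highest EZ library in 81.5% of all genes called higher in the DZ, in 40.5% of those not called and in 6.62% of those called lower. EZ replicate 2 was the highest in 12.2%, 26.7% and 9.61% of them, and EZ replicate 1 in 5.75%, 32.4% and 82.9%. In each of the 3 call groups, members were thus highest in EZ replicate 2 more often than all genes with the same call. The EZ values chose the members, and weaker EZ peaks were not counted in this way. It is therefore not known whether this difference is particular to the 92. This difference was not tested. The flanking libraries also differed among themselves. The median level of the 92 genes was 3.68, 2.18 and 3.42 RPKM in MZ replicates 1 to 3, 47.1, 77.5 and 68.7 RPKM in EZ replicates 1 to 3 and 10.6, 6.07 and 7.39 RPKM in DZ replicates 1 to 3. DZ replicate 1 held the highest DZ value in 50 genes. Number 1 thus had the lowest EZ level together with the highest median DZ and MZ levels, beside its lowest median fold.

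**Figure D4:**
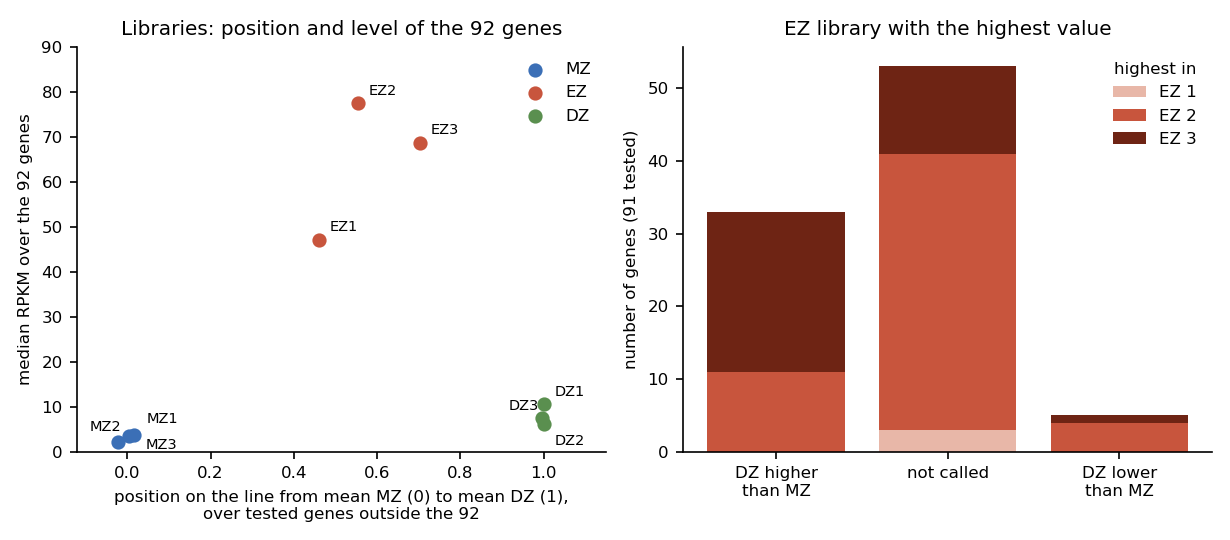
Left, each library's position on the line from the mean MZ (0) to the mean DZ (1) over genes outside the 92, against the median RPKM of the 92 genes. EZ replicate 1 lies at 0.461 with a median of 47.1 RPKM, and EZ replicates 2 and 3 lie farther along with 77.5 and 68.7 RPKM. Right, number of genes with their highest value in each EZ library, by the limma call of DZ against MZ.

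A few members, named here after their values were seen, stood apart from the rest. Solyc03g063030.2 and Solyc03g063040.2, next to each other in locus order, had the same 9 values, with an EZ mean of 155 RPKM, and count as 1 measurement. In the whole tomato table, 792 genes above 0 shared all 9 values with another gene. Solyc01g081550.1 was at 31.3 RPKM in EZ replicate 2 and listed at 0 in the other 8 libraries, and it is the member that did not pass the filter. Solyc10g078770.1 was at 10.5, 0.492 and 19.4 RPKM in EZ replicates 1 to 3, with EZ replicate 2 inside the range of its flanking zones. With the shared row counted once and Solyc01g081550.1 left out (a variant added once the values were known), 90 genes remained.

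Tomato locus names give the chromosome and rise along it, so the names also show where the genes lie. Chromosome 6 held 14 of the 92, chromosome 3 held 13 and chromosome 12 held 12, while chromosome 8 held 1 and chromosome 11 none (0 of 719 genes with an EZ mean of at least 10). As a share of the genes with an EZ mean of at least 10, chromosome 12 was highest with 1.70%. Of the 92 genes, 13 formed pairs within 5 places of each other in locus order, 7 pairs in all, and 4 of these pairs were direct neighbours. Apart from the pair with the same values, the direct neighbours were Solyc10g074830.1 and Solyc10g074840.1, Solyc12g055970.1 and Solyc12g055980.1, and Solyc12g100220.1 and Solyc12g100230.1. The second of these had EZ means of 178 and 169 RPKM and nearly the same profile. In the first the levels were far apart, with EZ means of 12.6 and 1140 RPKM. How the counting treated reads that fit more than 1 gene is not known, so values of neighbouring genes with like profiles are uncertain. Of 175 other genes directly beside a member, 68 (38.9%) had an EZ mean of at least 10 RPKM, against 29.1% of all tomato genes. The EZ was the highest zone in 31 of the 68 (45.6%), against 33.8% of all tomato genes with that EZ mean. These differences were not tested.

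The same rule applied to the other species of the table gave 236 genes in Arabidopsis, 58 in maize, 25 in cucumber, 23 in soybean and 2 in rice. As a share of each species' genes with an EZ mean of at least 10 RPKM, these were 2.21%, 0.551%, 0.267%, 0.225% and 0.0219%, against 0.911% in tomato. Every EZ library lay above every MZ and DZ library in 128 of the 236 Arabidopsis genes, 42 of the 58 maize genes, 24 of the 25 cucumber genes, 6 of the 23 soybean genes and 1 of the 2 rice genes, against 90 of 92 in tomato. The DZ mean was above the MZ mean in 125 of the 236 Arabidopsis genes, 24 of the 58 maize genes, 11 of the 25 cucumber genes, 10 of the 23 soybean genes and 1 of the 2 rice genes, against 65 of 92 in tomato. Some rows of the table had locus names with another start and were left out, so counts of the other species may be too low. Each species has its own libraries. By the labels, tomato seedlings were taken at 6 days and those of all the other species compared here at a younger age. Tomato thus differed from each of them in age as well as in species. The differences between species were not tested.

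**Figure D5:**
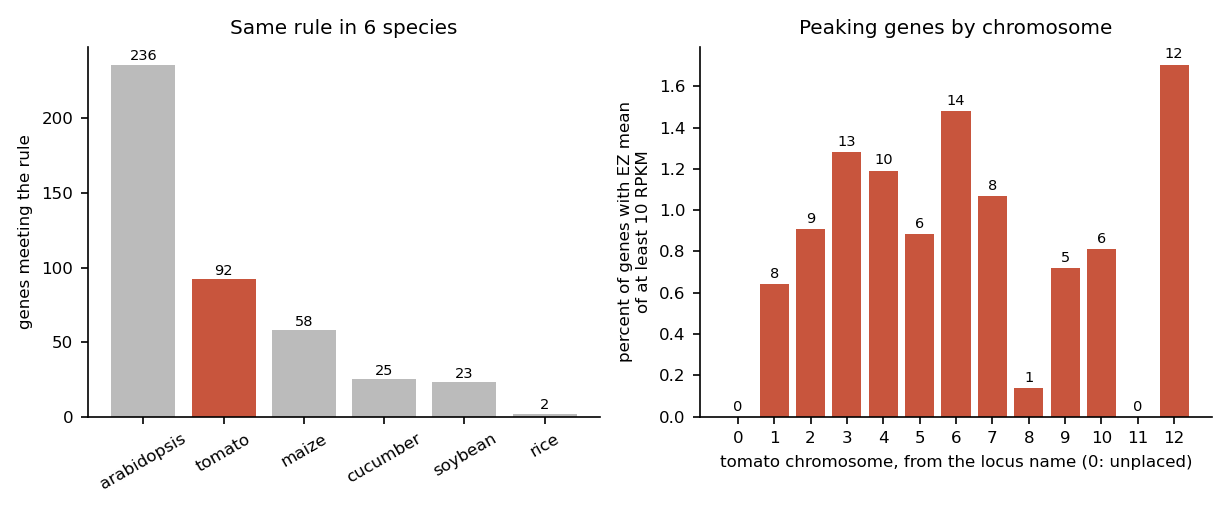
Left, number of genes meeting the rule in each of 6 species, with 236 in Arabidopsis and 92 in tomato. Tomato seedlings were older than those of the other species. Right, the 92 tomato genes by chromosome, as percent of the genes with an EZ mean of at least 10 RPKM (bars) and as counts (numbers above the bars), with none on chromosome 11.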

How the data were processed

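The authors deposited RPKM values for 3 zones and 6 species in a table in which each column stacks the libraries of 1 zone and number. Rows were assigned to species by the start of the locus name, with 1 prefix per species. Rows with any other start were left out of the counts by species. For the tomato rows, the column of a zone and number was read as the tomato library of that zone and number. TopHat2 and FastQC are the tools listed, per the submitters' processing notes, and per the labels tomato reads were mapped with the annotation of Ensembl Release 19 (SL2.4). Versions, the counting tool, gene lengths and read strand are not given in those sources. The files hold no read counts, so depth was estimated only relative to MZ replicate 1. The estimate used genes whose low values were taken as equal numbers of reads, and ratios far from 1 were left out. A second table, with a joint EZ and DZ column, was not used here.

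The 9 tomato libraries were fitted together in limma (version 3.58.1, R version 4.3.3) on the scale log2(RPKM + 1), which understates changes of low genes. The fit took every gene that reached 1 RPKM in 3 or more libraries. It used lmFit and eBayes (trend and robust both on), and its two-sided p-values were adjusted by Benjamini and Hochberg's method across all tomato genes in the fit. Calls needed an adjusted p under 0.05 and at least a 2-fold change. The procedure was tested on simulated data. Nothing says that the libraries came from separate cultures beyond the word biological in the design text. Python 3.11.15, pandas 2.3.3, NumPy 2.4.6 and matplotlib 3.10.9 handled tables and plots.

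The named genes are the 2 members with the highest EZ mean, the 2 with the largest fold over the higher flanking zone, and the 2 with the largest rise and the 2 with the largest fall among the calls of DZ against MZ. The members, the rule and the tests were chosen with earlier results of these data known. Libraries of the same number deviated together from their zone means in DZ and MZ (r = 0.245, 0.116 and 0.152 for numbers 1, 2 and 3) and in DZ and EZ (0.196, 0.314 and 0.182), but in EZ and MZ only at 0.016, 0.063 and 0.035. Libraries of different numbers were at -0.175 to 0.021 in DZ and MZ and at -0.159 to -0.077 in DZ and EZ. In EZ and MZ they were at -0.066 to 0.026. A pairing by number would hold between all zones, so this check does not settle whether the numbers pair the libraries. The labels do not say what a number stands for. Alternatives were a replicate block, another pseudocount, no filter, quantile normalization, plain eBayes, other limits of the rule and leaving out each library.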

Additional observations from a re-analysis of the deposited data

How the results depend on the processing

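The number of genes meeting the rule was 178 with at least 3 times and 28 with at least 8 times in place of 4 times. It was 87 to 120 when each library was left out in turn, highest without EZ replicate 1, and 64 of the 92 met the rule without each library in turn. Of 133 genes chosen without number 1, 112 were found again in it with a fold of at least 2, in place of 48 with at least 4. Among all genes with at least 10 RPKM in EZ replicate 1, these folds were met by 3.82% and 0.666%. Leaving out each library in turn moved the members called in DZ against MZ to 28 to 38 higher and 4 to 7 lower. With the replicate number as a block in the fit, 33 were higher and 6 lower, 90 members were called in EZ against MZ and 90 in DZ against EZ, and no call of a named gene changed. Of 107 counts computed under an alternative, 104 were within 1.5 times the reported count. Quantile normalization moved the median log2 change of all tested genes by -0.16 in DZ against EZ and by -0.20 in DZ against MZ. In DZ against MZ it left 29 members higher and 6 lower, with 4886 of all genes higher and 6403 lower in place of 5509 and 5347. Read depth is not known in absolute terms, so the reads behind MZ values under 1 RPKM cannot be given.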

Other observations

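Across the 92 genes, the log2 difference between EZ replicates 3 and 1 went with that between the DZ and the MZ, with Pearson's r = 0.51 and Spearman's rho = 0.56 over 92 genes. Over the 19801 tested genes outside the 92 these were 0.66 and 0.75. Genes of the same libraries share all 9 libraries and are not independent, so these values describe the libraries and carry no test.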
